A study of Mus musculus with 14 samples.

Results

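Open chromatin around 10 early-response genes was followed across blood stem and progenitor cells of 4 genotypes. The genes were Nr4a1, Nr4a2, Nr4a3, Egr1, Egr2, Egr3, Klf2, Klf4, Klf6 and Btg2. A region was taken as a member when it lay within 25 kb of the RefSeq bounds of one of these genes and had a mean signal value of at least 50 over all libraries. The deposited table holds 705361 regions of the mouse build mm10, of which 59189 had such a mean and were tested. Of 334 regions inside the windows of the 10 genes, 85 passed and are described here. Each region is a label of position, and no region was shown to regulate the gene it is named after.

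The signal came from ATAC-seq, in which a transposase cuts and tags accessible DNA, in 14 libraries of sorted mouse bone marrow. Long-term haematopoietic stem cells (LT-HSC) and MPP3 cells, a multipotent progenitor biased towards myeloid output, gave 7 libraries each. All donors were young and of the strain C57BL/6J, and whole marrow (1000000 cells) went into lethally irradiated CD45.1 recipients. Every recipient, WT included, was given poly(I:C) after 4 weeks, tamoxifen after another 4 weeks, and was harvested 4 weeks later.

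The WT donors carried Mx-Cre, a Cre recombinase under an interferon-inducible promoter that is active in blood cells and in other tissues. The Dnmt3a group carried the Dnmt3a-flR878H/+ allele, a mutation of a DNA methyltransferase, and the Npm1 group the Npm1-frt/+ allele of a nucleolar protein. The sample titles write this Npm1 allele as Npm1c. The Dnmt3a;Npm1 group carried both. The labels name Mx-Cre for the WT donors and do not name a recombinase for the other groups. Sorted cells of an irradiated host can include cells the host kept, and a bulk library cannot tell fewer cells with an open region from a less open region in each cell. The groups LT-HSC Dnmt3a and MPP3 Dnmt3a;Npm1 had 1 library and the other 6 groups had 2, called A and B. Whether A and B are separate animals is not said in the labels. The p-values therefore rest on library-to-library spread alone, part of which may be technical.

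NR4A proteins are orphan nuclear receptors, EGR and KLF proteins are zinc-finger transcription factors, and BTG2 is an antiproliferative protein that binds the CCR4-NOT deadenylase complex. Their genes are switched on rapidly and transiently by growth factors, cAMP, calcium and stress, through CREB at cAMP response elements, through SRF with its ETS partners at CArG boxes, and through MEF2. In blood stem cells Nr4a1, Nr4a3 and Egr1 are known for restraining proliferation, and the promoters of such genes are held open before they are induced.

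Promoter sequences of 8 of the 10 genes were matched in a RefSeq table (GRCm38.p6, the assembly of mm10), each running from 250 bases before to 50 bases after an annotated start. Egr1 and Egr3 had no sequence there, so their promoters were not searched. Windows are shown here for some of the genes at which the accessibility differences below were largest or whose promoters hold the elements named above. Those of Nr4a2 and Klf4 also hold the core TGACG and are not printed. Capitals mark the cAMP response element TGACGTCA, its core TGACG on either strand, and the CArG box. The core lies within the full element wherever the full element is present.
Nr4a1 (chr15:101266596-101266895, plus strand): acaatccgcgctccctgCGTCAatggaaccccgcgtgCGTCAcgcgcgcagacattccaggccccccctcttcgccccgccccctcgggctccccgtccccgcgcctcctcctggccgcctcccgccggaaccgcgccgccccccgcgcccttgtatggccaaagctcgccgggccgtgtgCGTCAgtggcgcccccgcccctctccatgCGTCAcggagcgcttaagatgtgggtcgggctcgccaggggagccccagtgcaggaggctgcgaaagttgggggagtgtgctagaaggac
Nr4a3 (chr4:48045055-48045354, plus strand): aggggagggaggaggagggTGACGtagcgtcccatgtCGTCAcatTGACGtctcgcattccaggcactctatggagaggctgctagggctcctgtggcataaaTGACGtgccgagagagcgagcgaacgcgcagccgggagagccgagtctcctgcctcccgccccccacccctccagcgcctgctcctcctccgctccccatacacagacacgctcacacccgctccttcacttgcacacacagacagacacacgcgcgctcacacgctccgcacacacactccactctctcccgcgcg
Egr2 (chr10:67537619-67537918, plus strand): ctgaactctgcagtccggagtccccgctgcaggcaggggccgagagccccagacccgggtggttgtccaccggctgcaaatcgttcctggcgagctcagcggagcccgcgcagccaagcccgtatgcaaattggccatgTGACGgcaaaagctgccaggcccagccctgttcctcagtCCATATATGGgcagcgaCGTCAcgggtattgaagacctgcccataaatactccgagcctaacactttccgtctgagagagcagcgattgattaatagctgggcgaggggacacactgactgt
Klf2 (chr8:72318812-72319111, plus strand): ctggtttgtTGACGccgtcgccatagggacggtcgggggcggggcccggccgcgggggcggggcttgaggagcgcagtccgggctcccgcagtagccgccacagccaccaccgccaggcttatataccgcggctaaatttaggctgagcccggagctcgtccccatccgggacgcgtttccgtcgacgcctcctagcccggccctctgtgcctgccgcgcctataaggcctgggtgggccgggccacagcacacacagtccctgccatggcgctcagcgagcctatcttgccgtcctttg
Klf6 (chr13:5861239-5861538, plus strand): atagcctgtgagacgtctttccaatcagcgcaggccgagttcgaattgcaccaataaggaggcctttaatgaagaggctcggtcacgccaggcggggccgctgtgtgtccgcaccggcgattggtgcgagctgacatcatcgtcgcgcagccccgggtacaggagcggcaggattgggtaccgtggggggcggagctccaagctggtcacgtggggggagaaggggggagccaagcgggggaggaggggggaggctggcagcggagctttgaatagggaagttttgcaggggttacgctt
Btg2 (chr1:134079106-134079405, minus strand): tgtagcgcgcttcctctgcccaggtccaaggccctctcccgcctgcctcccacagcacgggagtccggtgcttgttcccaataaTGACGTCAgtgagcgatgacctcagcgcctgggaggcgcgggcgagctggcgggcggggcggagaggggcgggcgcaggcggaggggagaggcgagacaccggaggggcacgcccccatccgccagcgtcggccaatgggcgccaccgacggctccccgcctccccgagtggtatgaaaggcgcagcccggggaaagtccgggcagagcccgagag

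The Nr4a promoters shared repeated cAMP response cores. The core TGACG occurred 4 times, counting both strands, in each of the windows of Nr4a1, Nr4a2 and Nr4a3. It occurred at least once in 20.8% of all 32851 promoter windows of the table, and the share with 4 matches was not counted. Among the 8 genes searched, the full element TGACGTCA was found in Btg2, with its first base at -166 from the start, and in 1.79% of all windows. A CArG box, the site of SRF, lay at -72 in the Egr2 window shown (1.63% of all windows), and a MEF2 site at -118 in the Klf2 window (0.557%). The Klf6 window held none of these, and a single match to the GC box GGGCGG (35.7% of all windows) at -63. The searches for the AP-1 site TGANTCA, the Egr site GCGTGGGCG, the NR4A site AAAGGTCA, the Klf site GGGTGTGG and the ETS site CCGGAAGT gave no match in the 12 windows of these genes. A match is a run of letters and not a shown binding site.

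The 85 regions were divided unevenly among the genes. Nr4a1 had 19, Egr3 and Btg2 12 each, Nr4a3 and Egr1 8 each, Klf6 7, Klf2 6, Nr4a2 and Egr2 5 each, and Klf4 3. Of them, 38 lay in the gene or within 1 kb of it and 47 in the flanks, and 20 overlapped another gene. Exons and introns were not used here, since gene bounds alone were at hand. They were stronger and wider than tested regions at large, with a median mean value of 154.6 against 86.1 and a median width of 1262 bp against 1008 bp. For each gene the region of highest mean value within 1 kb of the gene is called its main region.

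The values are the authors' scaled signal, divided here by a factor per library (trimmed mean of M values, TMM). Library totals of the deposited signal were 14683769 to 28748205. In 8 libraries the low values were multiples of a fixed step, which gave 7336955 to 18293464 reads in regions, and the depth of the other 6 is unknown. The libraries differed in enrichment, the share of their signal in the tested regions. That share was 29.4% and 25.5% in LT-HSC Npm1, 31.8% and 37.1% in MPP3 Dnmt3a, and 40.6% to 63.1% in the other 10 libraries. Marker regions of granulocyte-monocyte genes (9 of 9 genes with a tested region) summed to 1545 to 2051 in LT-HSC and 2173 to 3837 in MPP3, without overlap. Those of 9 LT-HSC marker genes overlapped, at 1658 to 2952 against 1923 to 2688. Marker regions of other blood lineages and of niche cells also carried signal in both populations, and overlapped between them for every such list except B cells (781 to 1129 in LT-HSC, 564 to 760.3 in MPP3).

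Per kilobase of region, the main region of Egr1 had the highest normalized signal, 323 ± 87.0 (SD, n = 14 libraries). Nr4a3 (289.7 ± 106), Klf4 (288 ± 79.3) and Klf6 (286 ± 114) followed, then Btg2 (244 ± 64.3), Klf2 (222 ± 55.6), Egr2 (217 ± 56.6), Nr4a1 (217 ± 56.0), Egr3 (201 ± 43.9) and Nr4a2 (189 ± 51.6). Each step in this order was smaller than the SD of either neighbour. Klf6 and Nr4a3 varied most, relative to their level, among the 10.

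**Figure D1:**
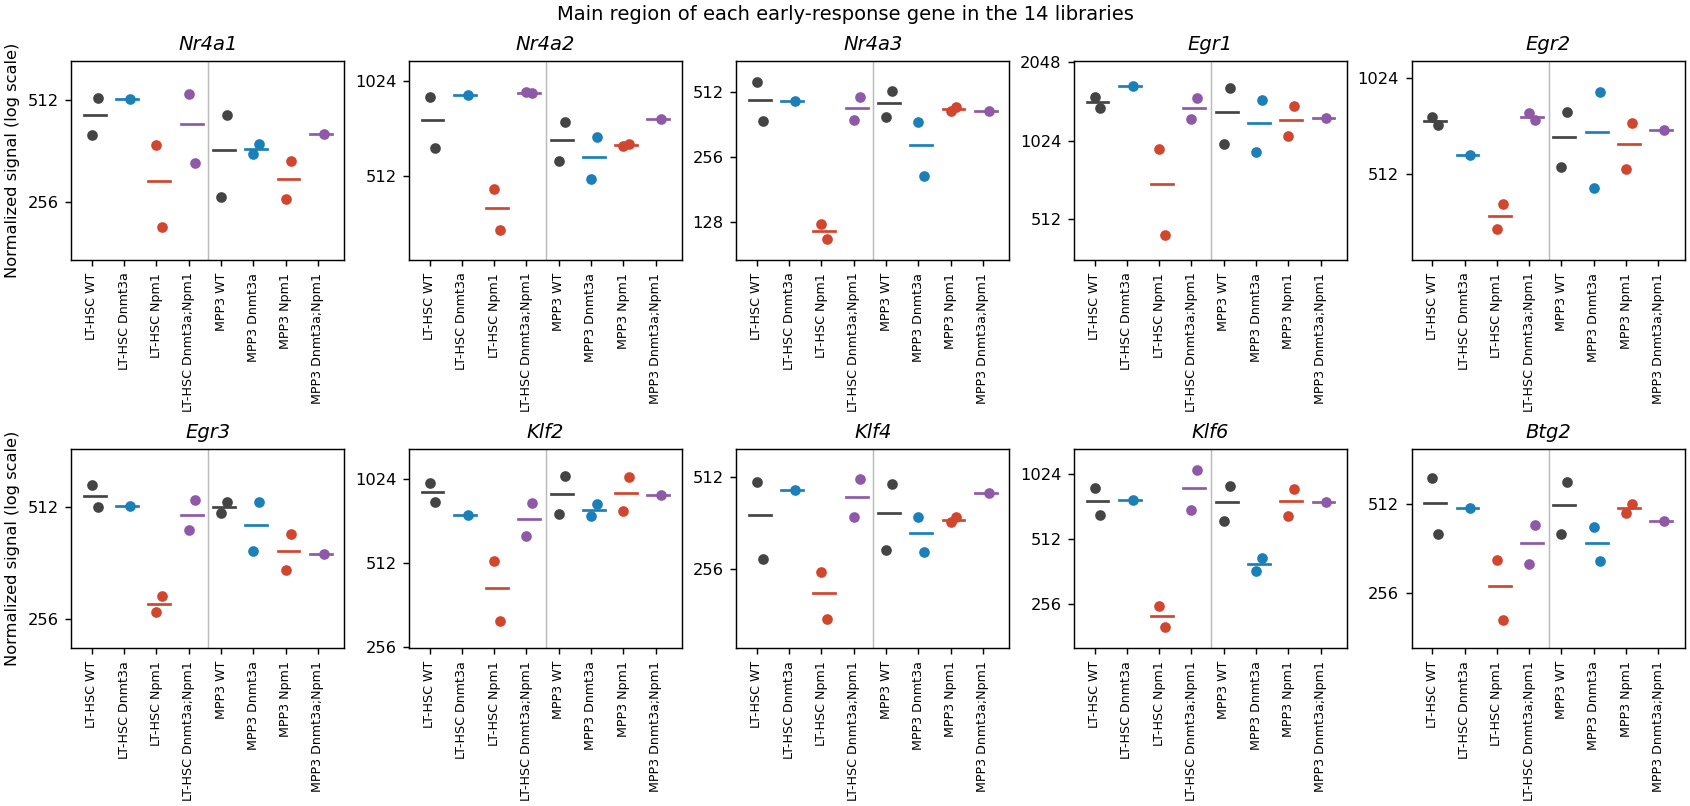
Normalized signal (log scale) of the main region of each of the 10 genes in the 14 libraries, by cell type and genotype. Points are libraries and lines are group means. Both LT-HSC Npm1 libraries (red, left of the grey line) lie below both LT-HSC WT libraries for every gene.

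The question put first was whether the Npm1 allele altered accessibility at these genes in LT-HSC. Of the 85 member regions, 7 were lower in Npm1 than in WT LT-HSC and 0 were higher at an adjusted p under 0.05 (limma, Benjamini-Hochberg over all tested regions). Over all tested regions the shares were 4.52% lower and 1.4% higher. The 7 belonged to Nr4a1 (2 regions), Nr4a3, Egr1, Egr3, Klf2 and Klf6. All 10 main regions were lower in both Npm1 libraries than in both WT libraries, as were 28.6% of all tested regions. So were 6419 of the 7822 tested regions whose mean value was 300 or more, the level of all 10 main regions. The differences of the main regions ran from -1.95 to -0.67 on the log2 scale, where 3 passed the test. Strong regions in general were lower in these libraries: of 7822 tested regions whose mean value was 300 or more, 26.5% were called lower and the median difference was -0.96, against 6 of 27 called and -0.91 among members of that level. The members' share and median were close to those of other regions of their strength.

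Marker regions of cell types also differed between these libraries, as strong regions in general did. Both Npm1 libraries were below both WT libraries at 28.6% of all tested regions. Among those whose mean value was 300 or more, they were so at 6419 of 7822. The sums below take the strongest region of each marker gene. The summed signal of the 9 LT-HSC marker genes was 2952 and 2445 in LT-HSC WT, 1658 and 1697 in Npm1, and 2674 and 2463 with both alleles, so the Npm1 libraries were the lowest in LT-HSC. The sum of 3 megakaryocyte genes was 904 and 777 in WT, 443.6 and 472 in Npm1, and 865 and 892 with both alleles, with Npm1 lowest again. That of the 9 granulocyte-monocyte genes was 1545 and 1894 in WT, 2051 and 1845 in Npm1, and 1624 and 1573 with both alleles. For 3 T and NK cell genes the sum was 1406 and 905 in WT and 665 and 543 in Npm1. With both alleles it was 878.5 and 1353, so Npm1 was lowest there too. The sum of 5 B cell genes was 826.7 and 1129 in WT, 781.2 and 825.6 in Npm1, and 783 and 1090 with both alleles. Npm1 lay below WT there by little and overlapped Dnmt3a;Npm1. Sums of erythroid, mast cell and niche genes overlapped between WT and Npm1.

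Region by region, granulocyte-monocyte markers had a median difference of 0.76 between Npm1 and WT, with 21 of 28 positive, 7 at an unadjusted p under 0.05 and 0 called. Between Dnmt3a;Npm1 and Npm1 their median was -0.88, with 23 of 28 negative, 8 at an unadjusted p under 0.05 and 0 called. Over all 59189 tested regions, 29793 were positive and 13787 had such a p between Npm1 and WT. Between Dnmt3a;Npm1 and Npm1, 29386 of them were negative and 11335 had such a p. Megakaryocyte markers had medians of -1.01 and 0.56 over 7 regions in these comparisons, with 4 and 2 at an unadjusted p under 0.05 and 0 called. LT-HSC markers had medians of -0.02 and 0.03 over 62 regions, with 2 called lower in Npm1 than in WT and 2 called higher in Dnmt3a;Npm1 than in Npm1. Over all tested regions 4.52% and 1.5% were so called. The part of cell composition in the member differences was not tested.

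The orphan receptor gene Nr4a3 showed the largest difference among the main regions. Its main region (chr4:48044519-48045813) spans the gene start and the promoter printed above. Its normalized signal was 567 and 373 in LT-HSC WT, 466 in Dnmt3a, 126 and 107 in Npm1, and 379 and 485.5 with both alleles. The 2 Npm1 libraries were the lowest of all 14, and the other LT-HSC libraries overlapped each other. These 2 libraries also had the lowest enrichment, 29.4% and 25.5%. The share of all tested regions at which they were the lowest of the 14 was not counted, here or for the regions below. The difference of Npm1 from WT was -1.95 (SE 0.37, adjusted p = 0.0126), and 50 of the 7822 regions of its level were lower still. In MPP3 the WT libraries read 392 and 514, the Npm1 libraries 415 and 433, the Dnmt3a libraries 372 and 208, and the library with both alleles 415, so Npm1 lay within the WT range there.

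A stronger Nr4a3 region (chr4:48042480-48043872), 1206 bp outside the gene, read 924 and 421 in LT-HSC WT, 346 and 186 in Npm1, and 868 and 698 in Dnmt3a;Npm1. The Npm1 libraries were below all others in LT-HSC, but the difference from WT did not pass (-1.29, SE 0.41, adjusted p = 0.0616). Inside the gene, 3 weak regions had a positive difference, of which 1 (chr4:48048680-48049222) overlapped between the groups (0.37, SE 0.96, adjusted p = 0.859). The region chr4:48074499-48075435 read 42.9 and 2.01 in WT and 167 and 109 in Npm1 (3.05, SE 0.92, adjusted p = 0.0508). The region chr4:48051416-48052276 read 47.5 and 15.0 in WT and 121 and 111 in Npm1 (1.93, SE 0.60, adjusted p = 0.0571). The last 2 missed the threshold by little, and regions with a mean value under 100 had a median difference of 0.44 over all tested regions.

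Nr4a1, the receptor gene with the most regions, was called in its flanks and not at its main region. The main region (chr15:101265623-101267387), which holds the promoter printed above, read 403 and 517.5 in LT-HSC WT, 514 in Dnmt3a, 376 and 215 in Npm1, and 532 and 334 with both alleles. Npm1 and WT did not overlap, but Dnmt3a;Npm1 spanned both, and the difference of -0.67 (SE 0.38, adjusted p = 0.297) was the smallest of the 10 genes. A region 12449 bp from the gene (chr15:101240648-101241453) read 142 and 216 in WT, 162 in Dnmt3a, 49.7 and 61.2 in Npm1, and 199 and 189.5 with both alleles. It was lower in Npm1 by the test (-1.60, SE 0.42, adjusted p = 0.0305), and the Npm1 libraries were the lowest of all 14.

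The other called Nr4a1 region lies 8822 bp outside the gene (chr15:101283617-101284878) and overlaps Atg101, a gene of the autophagy initiation complex, so it may equally be read as an Atg101 region. It read 305 and 391 in LT-HSC WT, 399 in Dnmt3a, 114 and 130.4 in Npm1, and 428 and 520.5 with both alleles. The Npm1 libraries were the lowest of all 14 here as well, with a difference of -1.47 (SE 0.35, adjusted p = 0.0231). In MPP3 it ran from 220.0 (Dnmt3a) to 433 (WT), with Npm1 at 394.5 and 400.0.

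Nr4a2 had no called region. Its main region (chr2:57113718-57117393), in the gene body, read 909 and 626 in LT-HSC WT, 923 in Dnmt3a, 463 and 346 in Npm1, and 944.5 and 933 with both alleles. The Npm1 libraries were again the lowest of the 14, with a difference of -0.91 (SE 0.32, adjusted p = 0.0919). The region at its annotated start (chr2:57122569-57124617) read 324 and 165.5 in WT and 170.5 and 178 in Npm1, which overlapped (-0.41, SE 0.36, adjusted p = 0.537).

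Among the Egr genes, the called regions lay in the flanks of the genes. The main region of Egr1, the family's best-known stem cell regulator, was the strongest member region at a mean value of 1414 (chr18:34859563-34863395). It read 1499 and 1366 in LT-HSC WT, 1650 in Dnmt3a, 948 and 446 in Npm1, and 1235 and 1491 with both alleles. The groups did not overlap, though Npm1 A and B differed from each other by more than the WT pair, and the difference of -1.13 (SE 0.36) had an adjusted p of 0.0624. A flanking region 3976 bp from Egr1 (chr18:34855032-34857231) read 575 and 609 in WT, 613 in Dnmt3a, 232 and 249 in Npm1, and 454 and 660.2 with both alleles. It was lower in Npm1 (-1.29, SE 0.34, adjusted p = 0.0325), with the 2 Npm1 libraries the lowest of the 14.

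Egr3, which with Egr2 is known for restraining T cell activation, was called at a region 10379 bp from the gene (chr14:70065414-70066938). That region read 403 and 561 in LT-HSC WT, 414 in Dnmt3a, 159 and 195.5 in Npm1, and 398 and 319.6 with both alleles (-1.41 for Npm1 against WT, SE 0.40, adjusted p = 0.041). In MPP3 it ranged between 138 (Dnmt3a A) and 543 (WT B), and Dnmt3a A was the lowest of all 14 libraries. The main region of Egr3 (chr14:70074096-70076320) read 586 and 510.5 in WT, 514 in Dnmt3a, 266.5 and 294 in Npm1, and 443 and 534 with both alleles. Npm1 was separated from every other LT-HSC library there without passing the test (-0.96, SE 0.32, adjusted p = 0.0783).

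Egr2 was not called. Its main region (chr10:67536510-67539501), over the promoter with the CArG box, read 773 and 731 in LT-HSC WT, 587 in Dnmt3a, 346 and 415 in Npm1, and 793 and 755 with both alleles. The difference was -0.98 (SE 0.35, adjusted p = 0.0931), and the 2 Npm1 libraries were the lowest of all 14.

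Of the Klf genes, Klf6 and Klf2 were called at their gene starts. Klf6, a factor with roles in early blood formation and in macrophages, had its main region (chr13:5860550-5862836) over the start and the promoter printed above. It read 881 and 663 in LT-HSC WT, 782 in Dnmt3a, 249.9 and 199.5 in Npm1, and 696 and 1071 with both alleles. The 2 Npm1 libraries were the lowest of all 14, and the difference from WT was -1.76 (SE 0.34, adjusted p = 0.0126), with 190 of 7822 regions of its level lower still. The next 2 lowest were MPP3 Dnmt3a, at 365 and 418, against 621 and 904 in MPP3 WT. MPP3 Npm1 stood at 657 and 877 and MPP3 Dnmt3a;Npm1 at 759.6.

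Klf2, a factor known for keeping lymphocytes quiescent, had its main region (chr8:72317106-72320666) at 992 and 848 in LT-HSC WT, 762 in Dnmt3a, 519.7 and 318 in Npm1, and 639 and 840.1 with both alleles. The Npm1 libraries were the lowest of all 14, with a difference of -1.17 (SE 0.33, adjusted p = 0.0399). A more negative difference was seen at 2397 of the 7822 regions of its level. This call held in 4 of 11 other settings, and its sign changed under cyclic loess normalization (0.02, adjusted p = 0.98, with adjusted p from 0.0172 to 0.98 over all alternatives).

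Klf4, a factor of monocyte differentiation and pluripotency, was not called. Its main region (chr4:55532021-55533309) read 493 and 277 in LT-HSC WT, 466 in Dnmt3a, 249.9 and 176 in Npm1, and 379 and 506.5 with both alleles. WT B lay close to Npm1 A, and the difference was -0.81 (SE 0.37, adjusted p = 0.198).

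Btg2, the antiproliferative gene whose promoter holds the full cAMP response element, had no called region among its 12. Its main region (chr1:134078619-134080383) read 628 and 406 in LT-HSC WT, 497 in Dnmt3a, 331 and 207 in Npm1, and 319.9 and 434 with both alleles. As at Nr4a1, 1 Dnmt3a;Npm1 library lay below Npm1 A. The difference of Npm1 from WT was -0.94 (SE 0.36, adjusted p = 0.12).

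**Figure D2:**
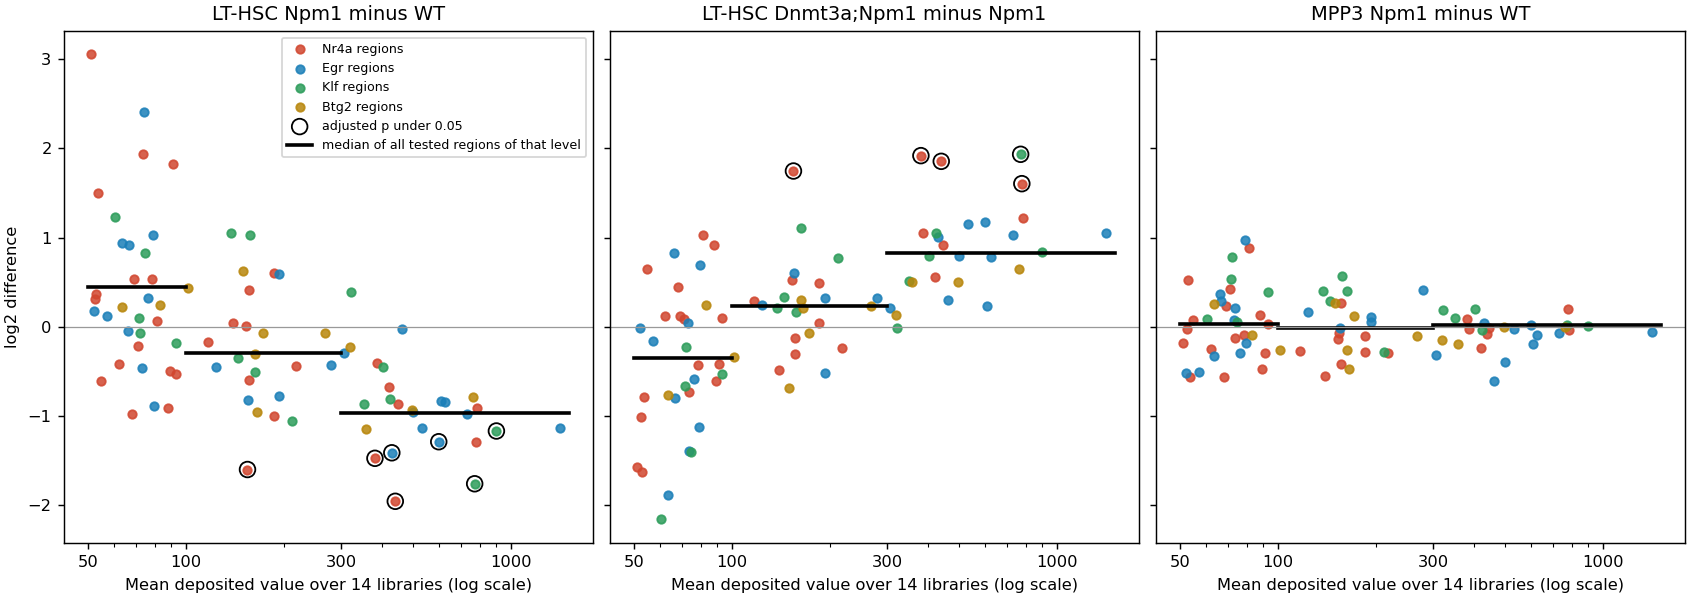
log2 difference of each of the 85 member regions against its mean deposited value (log scale) in 3 comparisons. Circles mark regions past an adjusted p of 0.05 (7, 5 and 0 regions), and black bars give the median of all tested regions of the same level. In LT-HSC the members follow the bars, which are negative for strong regions in Npm1 minus WT (-0.96 at mean values of at least 300) and positive in Dnmt3a;Npm1 minus Npm1 (0.83).

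The direction of the member differences depended on the strength of the region. Of the 27 members whose mean value was 300 or more, 26 had a negative difference between Npm1 and WT LT-HSC, and the exception was a Klf4 region of 0.39. Members with mean values of 100 to 300 had a median of -0.30 with 1 called, against -0.30 and 3.29% called lower for all tested regions of that level. The 33 members under 100 had a median of 0.23, with 21 positive and 0 called, against 0.44 for all tested regions of that level, of which 1.74% were called higher and 0.0969% lower. Regions in or near the genes and in the flanks were alike, with medians of -0.41 and -0.30 and with 3 of 38 and 4 of 47 called.

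The main regions moved with the scaling. With TMM the median difference of the 10 was -0.97, and of all tested regions 0.01. Scaling to the library total moved the median of all tested regions to -0.57 and that of the main regions to -1.58. Cyclic loess, which removes differences that follow the level, gave 6 positive and 4 negative main regions with a median of 0.02 and 0 called members. With library enrichment as a covariate all 10 stayed negative (median -0.46) and 0 members were called. Nr4a3 remained the most negative main region in each, at -1.12 with loess and -1.62 with the covariate, and Klf6 was at -0.68 and -1.20.

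**Figure D3:**
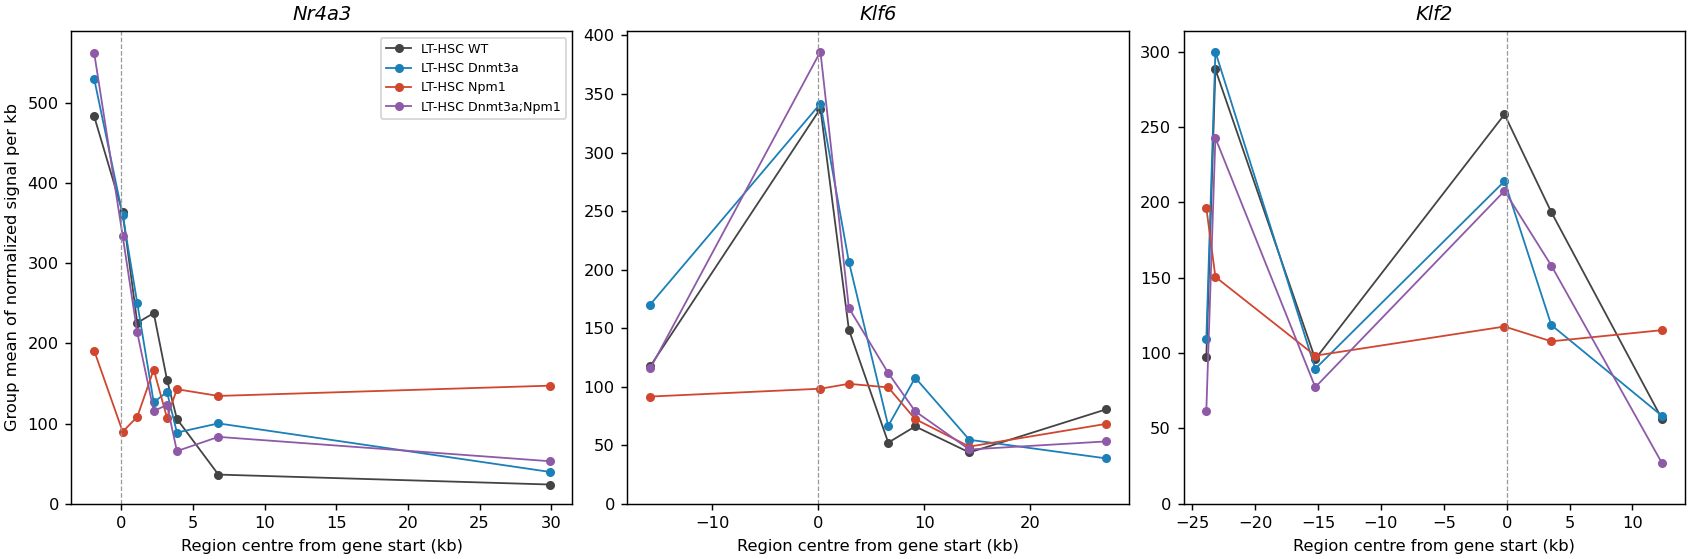
Group mean of normalized signal per kb at the member regions of Nr4a3, Klf6 and Klf2 in LT-HSC, against the distance of the region centre from the gene start (kb, along the direction of transcription). Npm1 (red) is lowest at the gene start of all 3 genes. At the region furthest downstream it is above WT for Nr4a3 and Klf2 and below WT for Klf6.

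A second question was whether the Dnmt3a allele altered what was seen with Npm1. Between Dnmt3a;Npm1 and Npm1 LT-HSC, 5 member regions were higher in Dnmt3a;Npm1 and 0 were lower (limma), against 1.5% higher and 0.204% lower over all tested regions. This comparison shares the 2 Npm1 libraries with that of Npm1 and WT, so the regions called in both are not independent evidence. The largest difference was at the Klf6 main region (883 ± 265 against 225 ± 35.7, SD, n = 2 and 2), at 1.93 (SE 0.34, adjusted p = 0.0268). The Atg101 region near Nr4a1 differed by 1.92 (SE 0.35, adjusted p = 0.028) and the Nr4a3 main region by 1.85 (SE 0.37, adjusted p = 0.0299). The Nr4a1 region 12449 bp from the gene followed at 1.74 (SE 0.42, adjusted p = 0.0416).

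The fifth was the strong Nr4a3 region outside the gene, at 783 ± 121 against 266 ± 113 (1.60, SE 0.41, adjusted p = 0.0475). Of the 7822 regions of their level, 38 exceeded the Klf6 difference, 42 the Atg101 region's and 63 that of the Nr4a3 main region. All 10 main regions had positive differences, with a median of 1.04 and the lowest in Btg2 (0.50). In 8 of the 10, the exceptions being Nr4a1 and Btg2, both Dnmt3a;Npm1 libraries were above both Npm1 libraries. So they were in 26.3% of all tested regions and in 5900 of the 7822 whose mean value was 300 or more. Of those 7822 regions, 7391 had a positive difference. Members whose mean value was 300 or more had a median of 0.84, and all tested regions of that level 0.83 with 8.9% called higher. Under cyclic loess 5 main regions were positive and 5 negative, with 0 called.

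Dnmt3a;Npm1 LT-HSC against WT gave 0 called members (0.00338% of all tested regions), with 2 member regions at an unadjusted p under 0.05 (7.15% of all tested regions). Main regions ran from -0.43 (Btg2) to 0.31 (Nr4a2), with SEs of 0.32 to 0.38. The regions of smallest p were a Klf6 region in the gene, at 1.20 (chr13:5867133-5869039, SE 0.43, adjusted p = 0.607), and an Nr4a2 flank at 1.40 (chr2:57102294-57103239, SE 0.62, adjusted p = 0.678). The most negative by p were an Nr4a3 region in the gene at -1.10 (chr4:48047032-48047633, SE 0.56, adjusted p = 0.717) and an Egr3 flank at -0.59 (chr14:70055241-70058269, SE 0.33, adjusted p = 0.745).

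The single LT-HSC Dnmt3a library gave 0 called members against WT (0% of all tested regions), and 3 at an unadjusted p under 0.05 (1.83% of all tested regions). Its main regions differed from WT by -0.36 (Egr2) to 0.33 (Klf4). A region inside Nr4a1 (chr15:101268705-101269461) read 9.30 against 72.4 ± 8.20 in WT (-2.52, SE 0.92, adjusted p = 1), and the spread of the lone library was borrowed from the other groups.

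**Figure D4:**
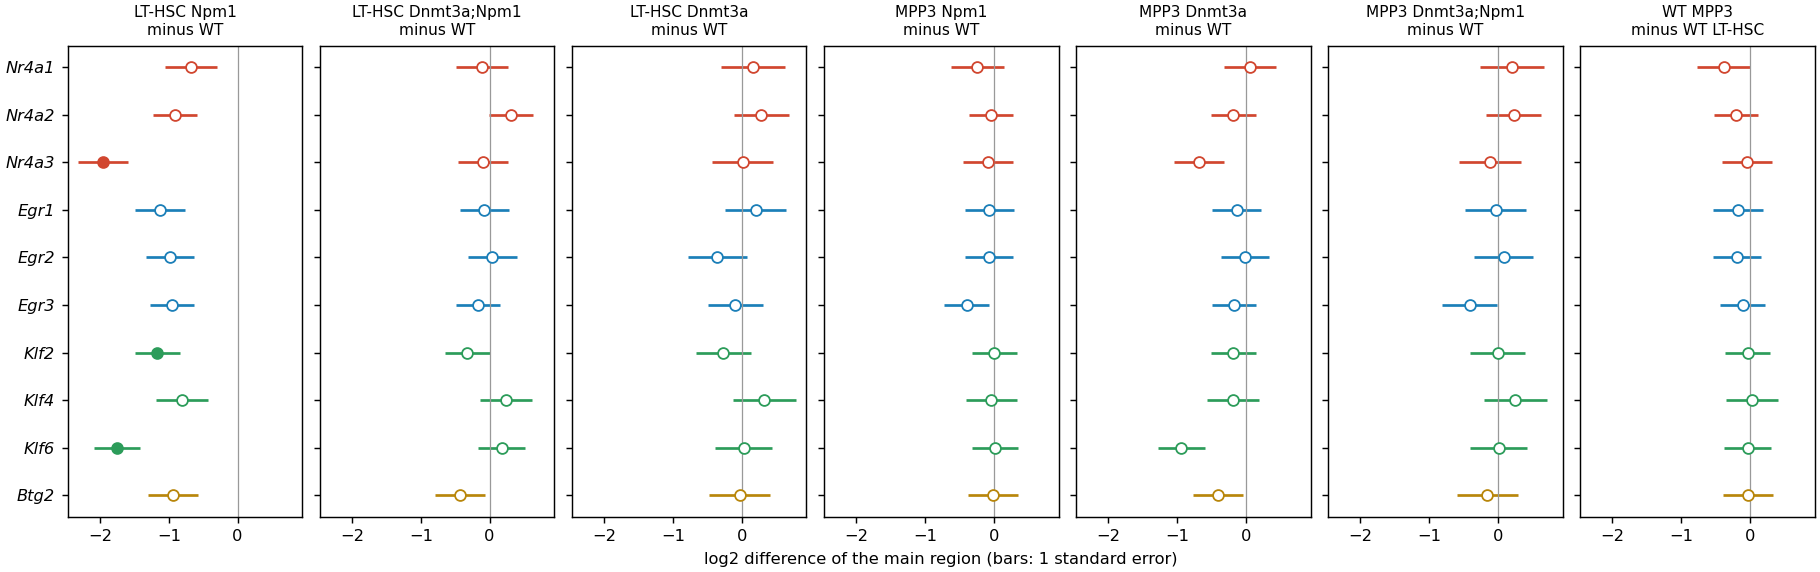
log2 difference of the main region of each gene in 7 comparisons, with bars of 1 standard error. Filled points passed an adjusted p of 0.05 and open points did not. The only filled points are Nr4a3, Klf2 and Klf6 in LT-HSC Npm1 minus WT, and in MPP3 Dnmt3a minus WT the lowest point is Klf6 (-0.93).

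In MPP3 the same allele gave no difference past the test. MPP3 Npm1 against WT had 0 called members (0% of all tested regions) and 0 at an unadjusted p under 0.05 (0.115% of all tested regions). Main regions differed by -0.39 (Egr3) to 0.02 (Klf6), with SEs of 0.32 to 0.38. The members furthest from 0 by p were an Egr3 region over the gene (chr14:70076612-70080588, -0.61, SE 0.34, adjusted p = 1) and an Egr1 flank (chr18:34847006-34848269, 0.97, SE 0.66, adjusted p = 1).

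Whether the Npm1 difference itself varied between the cell types was tested as an interaction, and 0 members passed (0% of all tested regions, with 14 members and 11.1% of all tested regions at an unadjusted p under 0.05). The main regions all had a positive interaction, with a median of 0.92, as had 7392 of the 7822 tested regions whose mean value was 300 or more (median 0.98). Under cyclic loess 3 main regions were positive and 7 negative, with a median of -0.14. Klf6 (1.78, SE 0.48) and Nr4a3 (1.87, SE 0.52) had the smallest p, each with an adjusted p of 0.312. The weak Nr4a3 region chr4:48074499-48075435 had the opposite sign (-3.23, SE 1.30, adjusted p = 0.37).

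MPP3 Dnmt3a against WT also gave 0 called members (0% of all tested regions), with 5 at an unadjusted p under 0.05 (10.1% of all tested regions). The Klf6 main region was lower in both Dnmt3a libraries than in both WT libraries, at 391 ± 37.5 against 763 ± 199.9 (SD, n = 2 and 2), without passing (-0.93, SE 0.34, adjusted p = 0.396). Nr4a3 was at -0.68 (SE 0.36, adjusted p = 0.532). The Egr1 flank chr18:34847006-34848269, which overlaps Reep2, read 131 and 190.3 in Dnmt3a and 19.6 and 21.8 in WT (2.71, SE 0.66, adjusted p = 0.271). Main regions had a median of -0.18 with 9 of 10 negative, and 7 of 10 were positive under loess, so their direction depended on the scaling. Of the 7822 tested regions whose mean value was 300 or more, 6833 were negative, with a median of -0.40. At 3028 of these both Dnmt3a libraries were below both WT libraries. MPP3 Dnmt3a;Npm1, with 1 library, gave 0 called members (0% of all tested regions) and 0 at an unadjusted p under 0.05 (0.478% of all tested regions), and its main regions differed from WT by -0.41 (Egr3) to 0.25 (Klf4).

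Between the cell types no member region passed the test. Over the 4 genotypes MPP3 and LT-HSC differed by -0.21 (Nr4a1) to 0.37 (Klf2) at main regions, and 0 members were called (0.139% of all tested regions), with 14 at an unadjusted p under 0.05 (12.5% of all tested regions). The groups of 7 libraries overlapped at every member region (0.441% of all tested regions were higher and 0.211% lower in all MPP3 libraries). WT cells alone gave 0 called members too (0% of all tested regions), and 6 at an unadjusted p under 0.05 (5.33% of all tested regions).

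The Btg2 locus held the differences of smallest p between cell types, in both directions. The region chr1:134072654-134074059, 806 bp beyond the gene, ran from 158 to 331 in LT-HSC (median 235) and from 54.1 to 190.2 in MPP3 (median 96.0), a difference of -1.10 (SE 0.27, adjusted p = 0.0971). MPP3 Dnmt3a A, at 190.2, overlapped LT-HSC, and without it the difference was -1.32. The flank chr1:134064688-134065886 ran from 28.1 to 138 in LT-HSC and from 129 to 221 in MPP3, a difference of 1.22 (SE 0.34, adjusted p = 0.133). Without LT-HSC WT A it was 1.49. Each left-out library lay where the cell types overlapped, so the larger differences follow from that choice and are no added support.

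Of the 16 Klf member regions 15 had a positive difference over the 4 genotypes (median 0.22, against 0.03 for all tested regions and -0.05 for the 32 Nr4a regions), and 0 passed. Over all tested regions 31055 of 59189 were positive, and 6325 of the 7822 whose mean value was 300 or more (median 0.18). The sign depended on the scaling: under cyclic loess the positive members went from 50 to 41 of 85 and the positive main regions from 7 to 3 of 10. The smallest p among them was at a Klf6 flank (chr13:5875354-5876111), from 5.24 to 65.0 in LT-HSC and from 29.8 to 203 in MPP3 (1.33, SE 0.46, adjusted p = 0.235). The region over the outer start of Nr4a1 (chr15:101253420-101254773) ran from 178 to 340.0 in LT-HSC and from 119 to 202 in MPP3 (-0.59, SE 0.21, adjusted p = 0.259).

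Across the 14 libraries the main regions moved together, with Pearson r between pairs of genes from 0.38 to 0.93 (median 0.74, 45 pairs), highest for Nr4a3 with Klf6. Their mean log2 level was 8.43 and 8.00 in LT-HSC Npm1 and 8.88 to 9.50 in the other 12 libraries. That mean followed the share of signal in tested regions (r = 0.84 over 14 libraries), with r of single genes from 0.43 (Nr4a1) to 0.85 (Btg2). These are descriptions: all points share library enrichment and normalization. Outside the members, the regions most like the mean were at Vamp1 (chr6:125214894-125216418, r = 0.98), Lrch4 (chr5:137627973-137632031, r = 0.98) and Gpsm2 (chr3:108721743-108722631, r = 0.98). 

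**Figure D5:**
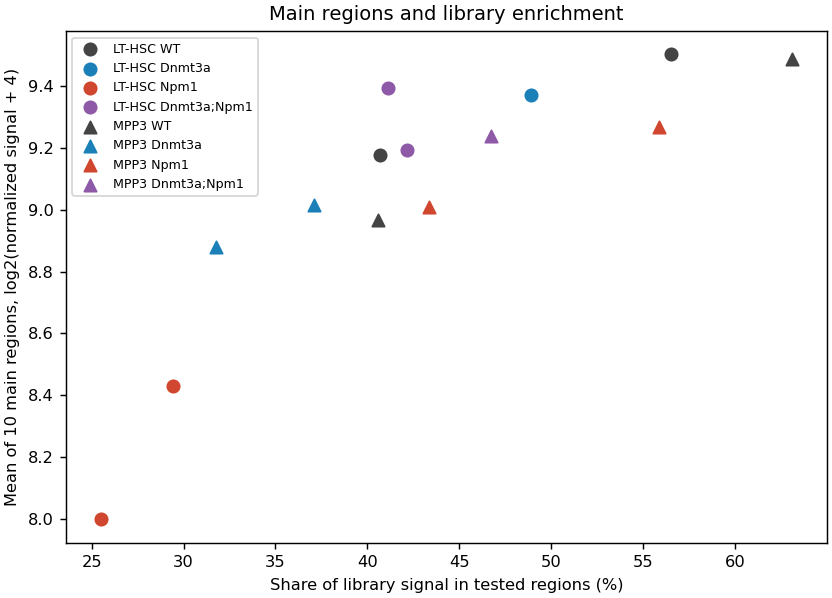
Mean of the 10 main regions, log2(normalized signal + 4), against the share of each library's signal in tested regions (%). Each point is a library, circles are LT-HSC and triangles MPP3. The 2 LT-HSC Npm1 libraries have the lowest share (29.4% and 25.5%) and the lowest mean (8.43 and 8.00), and the LT-HSC Dnmt3a;Npm1 libraries, at 42.2% and 41.1%, have shares near that of WT B (40.7%) and below that of WT A (56.5%).

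Other early-response genes were read from a list of 53 genes (160 regions in or within 1 kb of them). In LT-HSC Npm1 against WT, 17 regions were lower and 0 higher, with a median of -0.55 (0.01 over all tested regions). Called lower were 4.52% of all tested regions and 26.5% of those whose mean value was 300 or more. The 4 genes of smallest p were Btg1, an antiproliferative relative of Btg2 (-1.83, SE 0.31, adjusted p = 0.0126), Zfp36l2, an mRNA decay factor (-1.62, SE 0.34, adjusted p = 0.0151), Maff, a small MAF protein (-1.59, SE 0.34, adjusted p = 0.0155), and Mcl1, a survival factor (-1.50, SE 0.32, adjusted p = 0.016). In Dnmt3a;Npm1 against Npm1, 7 were higher and 0 lower, led by Maff (1.58, SE 0.34, adjusted p = 0.0319), Fosb (1.42, SE 0.33, adjusted p = 0.0383), Ier2 (1.54, SE 0.37, adjusted p = 0.0408) and Btg1 (1.30, SE 0.31, adjusted p = 0.0419). Called higher in this comparison were 1.5% of all tested regions and 8.9% of the strong ones.

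Regulators of the early response formed a list of 24 genes (142 regions), with SRF and CREB partners, MEF2 factors, class IIa deacetylases, NAB corepressors and the MAP kinases. In LT-HSC Npm1 against WT, 11 regions were lower and 1 higher, with a median of 0.05, against 4.52% lower and 1.4% higher over all tested regions and 26.5% lower among the strong ones. The 4 genes of smallest p were Mef2c (-2.20, SE 0.39, adjusted p = 0.0126), Nab2, a corepressor that binds EGR proteins (-1.45, SE 0.33, adjusted p = 0.0193), Hdac4, which represses MEF2 targets (-1.41, SE 0.34, adjusted p = 0.0231), and Map2k1 (-1.43, SE 0.37, adjusted p = 0.0306). The region higher in Npm1 was at Crtc1, a CREB coactivator (1.98, SE 0.57, adjusted p = 0.0443), chosen after its value was seen as the lone call in that direction. In Dnmt3a;Npm1 against Npm1, 3 were higher and 0 lower: Elk4 (1.53, SE 0.35, adjusted p = 0.0362), Mef2c (1.61, SE 0.39, adjusted p = 0.0433) and Hdac4 (1.36, SE 0.34, adjusted p = 0.045). That share was near the 1.5% called higher over all tested regions and below the 8.9% of the strong ones.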

How the data were processed

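ATAC-seq of 14 libraries was read from 1 deposited table of signal per region (mm10). The authors deposited scaled signal values rounded to whole numbers, which are not read counts, and the submitters' processing notes name R 3.6.0, DiffBind 2.12.0, edgeR 3.26.4 and HOMER 4.10 without saying what each did. The aligner and peak caller are not given in the sources used here. Because the values are not counts, a linear model was used and no count test was run. Regions with a row mean of at least 50 were divided by a TMM factor per library and fitted with limma 3.58.1 in R 4.3.3 on log2(value + 4), with 8 groups, a robust trended prior and Benjamini-Hochberg adjustment over 59189 regions in each of 10 comparisons. Fold changes are on that scale, which understates changes of weak regions. Coordinates are printed as deposited. The fit was run on simulated data with independent noise and library factors, but without enrichment differences between libraries. That run cannot show how such differences affect the calls.

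Members and gene lists were chosen with earlier results of these data known. Named regions are the main region of each gene, every called member, and members of smallest p in each direction in a comparison. From each gene list up to 4 called genes per comparison are named. Marker regions are summed over the strongest region of each marker gene. Alternatives were other scalings, an enrichment covariate, other row mean limits and pseudocounts, a plain prior, fewer groups, no unplaced contigs, a replicate block and leaving out each library. Replicate letters were not used to pair the samples in the main fit. The differences of B and A correlated between groups at r from -0.295 to 0.431, with 1 of 15 group pairs over 0.1. These correlations cannot tell whether libraries of the same letter share a recipient, since the libraries also differ in enrichment. The labels do not say.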

Additional observations from a re-analysis of the deposited data

How the results depend on the processing

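The 7 calls for Npm1 against WT in LT-HSC became 21 with scaling to the library total, 0 with cyclic loess, 0 with the enrichment covariate, 0 with a plain prior, and 3 (1 of them higher) with a row mean of at least 100. Leaving out 1 library each time gave 0 to 11 calls. There were 0 without Npm1 B, 2 without WT B, 3 without MPP3 Npm1 A or B, 11 without MPP3 Dnmt3a A or B, and 3 without WT A, all of them higher. Without MPP3 Dnmt3a A or B the calls were not all lower. The Nr4a3 regions chr4:48051416-48052276 and chr4:48074499-48075435 were higher in Npm1 there, at 1.94 and 3.06 without A. The Klf2 main region reversed to 0.0167 with cyclic loess. Without LT-HSC WT A, Nr4a3 was at -1.58 (limma adjusted p = 0.0997) and Klf6 at -1.48 (adjusted p = 0.105), and adjusted p ran from 0.00446 to 0.687 and from 0.00569 to 0.687 over all alternatives. The 5 calls for Dnmt3a;Npm1 against Npm1 became 0 with loess, 0 with the covariate, 0 with a row mean of at least 25, 0 with a plain prior, 0 with the compared groups only, 3 with a row mean of at least 100, and 3 with the replicate block. Leaving out 1 library gave 0 to 6, with 0 without WT A, Npm1 B or Dnmt3a;Npm1 B, 3 without WT B, MPP3 Npm1 A or MPP3 Npm1 B, and 5 without Dnmt3a;Npm1 A, of which 2 were lower. Between cell types, leaving out 1 library gave 0 to 1 call over all genotypes and 0 to 1 in WT. The replicate block gave 6 calls for Npm1 against WT. The causes were not tested. A comparison that needs a lone library has no value without it. Depth is unknown for 6 libraries, so no counting interval is given.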

Other observations

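Some of the regions within 25 kb belong as much to neighbouring genes. A region near Egr2 (from base 67547941 of chromosome 10) overlaps Ado, a thiol dioxygenase gene, and read 609 and 462 in LT-HSC WT and 247 and 233 in Npm1. Of 2 Egr3 flanks that overlap Pebp4, the stronger read 706 and 775 in WT, 501.5 and 342 in Npm1, and 453 and 527.5 in Dnmt3a;Npm1, so both Npm1-carrying groups lay below WT. The weaker read 72.4 and 33.1 in WT and 117.5 and 79.0 in Npm1. A Btg2 flank starting at base 134092487 of chromosome 1 read 570.1 and 872.5 in WT, 470.1 and 352 in Npm1, and 619.5 and 655 in Dnmt3a;Npm1.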
